A study of Homo sapiens with 4 samples.

Results

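The ID genes (ID1, ID2, ID3 and ID4) and the SMAD genes with their feedback inhibitors (SMAD3, SMAD4, SMAD6, SMAD7, SKIL and BAMBI) were followed in slow-cycling breast cancer cells. They were taken by gene name and are 10 of the 58735 genes in the deposited count table; all 10 passed the expression filter (a mean of at least 1 CPM, that is counts scaled to library size, over the 4 libraries), as did 14585 genes in all. The cells were MDA-MB-231, a long-established line from a human triple-negative breast tumour, carrying a doxycycline-inducible histone H2B fused to eGFP. Every group was given doxycycline at 5 µg/ml for 3 days together with the dyes Claret and Violet, and was then chased for 12 days, so that each division diluted the 3 labels. The 3 label-retaining groups, called Claret, eGFP and Violet here after the label retained, were the top 1% of cells for that label, and the Bulk group was sorted with no fluorescence gate. Each group was 1 RNA-seq library from 1 engineered line. No replicate error can therefore be given, and no test between conditions was possible.

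The titles were used to name the groups, but for all 4 libraries the treatment field contradicts the title. The columns of the deposited counts are headed with the same group names as the titles, and were matched to the libraries by them. The library titled Bulk held 6778 reads of the proliferation gene MKI67, against 995 for Claret, 689 for eGFP and 915 for Violet. Values under the treatment field are given with the other processing choices. Libraries held between 15508179 and 16976909 counted reads, and 3 reads, the limit that a count of 0 allows, came to between 0.177 and 0.191 CPM. Between 15203 and 16075 genes had at least 10 reads, with the lowest number in Bulk. Of the markers of the line, VIM, CD44, KRT18 and EGFR were read in every library, ESR1 had 3 to 7 reads, PGR had 0 and CDH1 had 0 to 3, while ERBB2 was read in every library, at 1415 to 1542 reads. Of the markers of other cell types, PTPRC had 0 to 2 reads, COL1A2 had 0, ALB had 0 to 6 and the endothelial gene PECAM1 had 57 reads in Bulk against 81 for Claret, 54 for eGFP and 87 for Violet.

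Ligands of the TGF-β and BMP families bind pairs of receptor kinases at the cell surface, which phosphorylate receptor-regulated SMADs. TGF-β and activin act mainly through SMAD2 and SMAD3, and BMPs through SMAD1, SMAD5 and SMAD9; both sets join the common partner SMAD4 and enter the nucleus. The pathway induces its own inhibitors. SMAD6 and SMAD7 are inhibitory SMADs, SKIL (SnoN) is a nuclear co-repressor of SMADs, and BAMBI is a pseudoreceptor with no kinase. ID proteins have a helix-loop-helix but no DNA-binding basic region, so they sequester E proteins and other bHLH factors; their genes are classic targets of BMP signalling, and ID1 and ID3 have been studied in breast cancer for self-renewal and metastatic outgrowth.

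Promoter sequence is shown for ID1, ID3, SMAD3 and SMAD6, the 4 genes with the largest difference from Bulk when each gene is ranked by the smallest of its 3 ratios. Promoters are DNA on which SMADs and other factors are known to act, and no binding was measured here. The windows searched are the 250 bases before each RefSeq start, and DNA further upstream was not searched. All are from RefSeq (GRCh38.p14), which had an entry for all 10 genes, and capitals mark a motif found by search on both strands. The ID1 window, the 244 bases before its first exon (chr20:31605039-31605282, plus strand), has the CCAAT box in its reverse form, starting 84 bases before the transcription start. The SMAD3 window (chr15:67065352-67065601, plus strand) precedes the first of 5 RefSeq starts and lies inside the annotated gene but in no exon. It holds CACGTG once and GGCGCC in 2 places.
ID1: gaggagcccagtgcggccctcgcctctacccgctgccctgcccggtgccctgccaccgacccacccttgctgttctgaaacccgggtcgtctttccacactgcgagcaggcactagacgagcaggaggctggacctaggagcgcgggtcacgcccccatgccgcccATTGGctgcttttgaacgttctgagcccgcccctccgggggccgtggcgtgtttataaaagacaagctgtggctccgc
SMAD3: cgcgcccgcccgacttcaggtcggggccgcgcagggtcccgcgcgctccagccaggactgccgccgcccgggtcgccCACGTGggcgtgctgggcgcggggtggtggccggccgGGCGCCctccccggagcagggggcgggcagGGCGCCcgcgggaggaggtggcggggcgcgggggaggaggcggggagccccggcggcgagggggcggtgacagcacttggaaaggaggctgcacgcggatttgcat

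For ID3 and SMAD6, 30 bases around a match to a SMAD-binding element are shown. The SMAD6 match is the palindrome GTCTAGAC, which starts 12 bases before the RefSeq start (chr15:66702206-66702235, plus strand) and was found in 64 of all 35116 windows of 250 bases, or 0.182%. The first annotated exon starts inside this palindrome, at 66702228, so GTCT lies before the exon and AGAC within it. The ID3 match is the shorter CAGAC, 147 bases before its start (chr1:23559631-23559660, minus strand) and inside an annotated exon. CAGAC occurs in 38.0% of the windows, among them those of ID4, SMAD7, SKIL and BAMBI.
ID3: ggtcttcggcgtCAGACcagccggaggaag
SMAD6: ccgcggagccgccaaagtGTCTAGACtggc

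The other motifs searched were GGCGCC, in 16.4% of all windows, CACGTG, in 6.34%, CCAAT, in 32.0%, and the AP-1 element TGANTCA, in 6.57%. GGCGCC was in the windows of SMAD3, SMAD4, SKIL and BAMBI and not in that of any ID gene. CAGAC lies inside neither GTCTAGAC nor any other motif searched. No window at the first RefSeq start of the 10 genes held TGANTCA; one at the third SMAD3 start did, 56 bases before that start. A match is a description of the letters and not of a bound site. By composition, 80.8% of the SMAD3 window and 66% of the full ID1 window are G or C, against 48% for SMAD7.

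All 4 ID genes had fewer reads in Claret, eGFP and Violet than in Bulk. Summed over the family, their level in FPKM (fragments scaled to gene length and a library total, as deposited) was 252 in Bulk, 129.5 for Claret, 125 for eGFP and 108 for Violet. That is 51.4%, 49.6% and 43.0% of the Bulk level in the label-retaining libraries. The totals behind the FPKM were 96.9% of the summed counts in Bulk, 99.97% for Claret, 100.7% for eGFP and 103.5% for Violet. This scaling differs from that of the CPM ratios below. Differences below are log2 ratios of CPM between 2 libraries, with a 95% exact (Clopper-Pearson) interval in brackets. The interval covers counting error only and compares 2 libraries, not 2 conditions. A gene was called changed where its ratio was at least 2-fold. The 3 comparisons with Bulk share that library, so they are not independent of each other. In bulk RNA, fewer cells with a transcript and less of it per cell cannot be told apart.

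**Figure D1:**
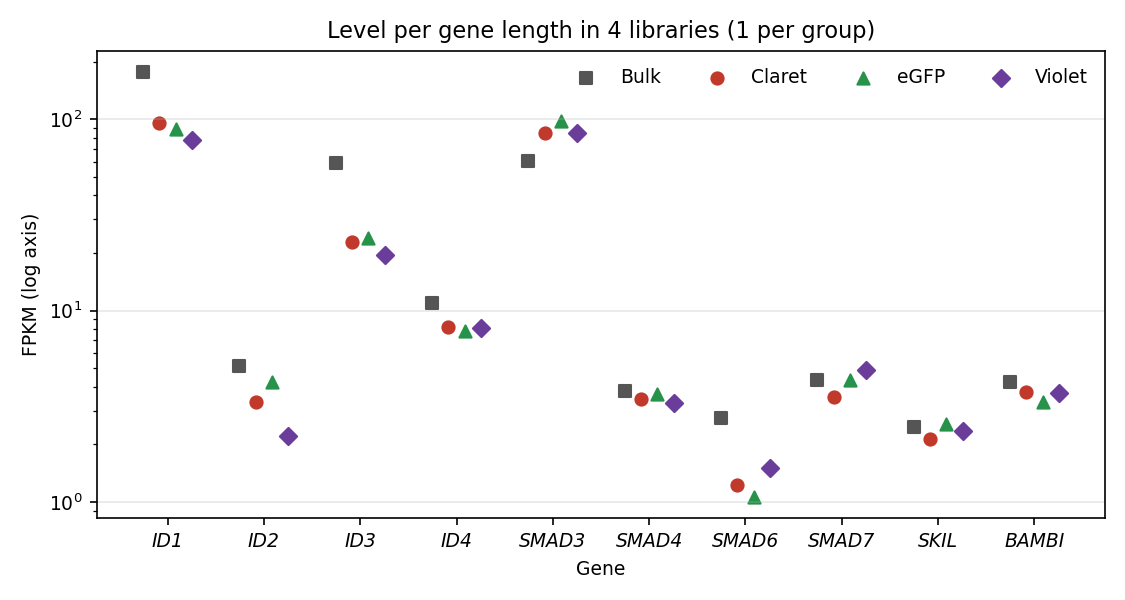
Level of each of the 10 genes in the 4 libraries, in FPKM on a log axis, 1 point per library and no error bar because each group is 1 library. Bulk is above the other 3 libraries for 7 of the 10 genes, among them ID1, at 177, and ID3, at 59.2. It is below them for SMAD3, at 60.6.

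ID3 was the only one of the 10 at least 2-fold lower in all 3 label-retaining libraries. Its gene lies on the minus strand of chromosome 1 (23557918 to 23559794, GRCh38), and it had 1653 reads in Bulk against 698 for Claret, 685 for eGFP and 565 for Violet. The Bulk count stood far above the other 3, which lay close together. The log2 ratio to Bulk was -1.35 [-1.48, -1.22] for Claret, -1.28 [-1.41, -1.15] for eGFP and -1.54 [-1.69, -1.41] for Violet. Of all genes kept, 4.93% were at least 2-fold lower in all 3.

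ID1, on the plus strand of chromosome 20 (31605283 to 31606515), was the most abundant of the family. It had 3386 reads in Bulk against 1991 for Claret, 1752 for eGFP and 1552 for Violet, or 177, 95.1, 88.9 and 78.4 FPKM. Its level in Bulk exceeded that of 99.0% of the protein-coding genes kept, and in the label-retaining libraries still that of 97.1% to 97.6%. The ratio to Bulk was -0.87 [-0.95, -0.79] for Claret, -0.96 [-1.05, -0.88] for eGFP and -1.12 [-1.21, -1.04] for Violet, so only the Violet value passed 2-fold. The length deposited for ID1 equals its whole span of 1233 bases, so reads from its intron are counted with the exons.

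ID2 and ID4 were read far less. ID2, on chromosome 2 (8678845 to 8684453), had 177 reads in Bulk against 124 for Claret, 149 for eGFP and 78 for Violet. Its ratio to Bulk was -0.61 [-0.96, -0.28] for Claret, -0.26 [-0.59, 0.06] for eGFP and -1.16 [-1.58, -0.79] for Violet. The Violet library was lowest, and the eGFP value has an interval that includes 0. ID4, on chromosome 6 (19837386 to 19840684), had 398 reads in Bulk against 325 for Claret, 294 for eGFP and 304 for Violet. Its ratios were alike in the 3 libraries, at -0.40 [-0.62, -0.19], -0.45 [-0.67, -0.23] and -0.39 [-0.61, -0.17] in that order, and none reached 2-fold.

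Since the ratios differed between the 4 genes, the make-up of the family differed between libraries. ID1 gave 70.1% of the summed ID FPKM in Bulk, beside 73.5% for Claret, 71.2% for eGFP and 72.4% for Violet. The share of ID3 was 23.5% in Bulk and 17.7%, 19.1% and 18.1% in the others, while that of ID4 was 4.34% in Bulk and 6.31%, 6.29% and 7.46%. ID2 stayed a minor part, between 2.04% and 3.39%. The ID1 to ID3 ratio of FPKM was 2.99 in Bulk (interval 2.81 to 3.17), 4.16 in Claret (3.81 to 4.54), 3.73 in eGFP (3.41 to 4.08) and 4.0 in Violet (3.63 to 4.42), and the Bulk interval overlaps none of the others. Set against the summed FPKM of the E proteins TCF3, TCF4 and TCF12, which ID proteins bind, the ID sum was 5.73 times as high in Bulk, 3.76 for Claret, 3.50 for eGFP and 3.17 for Violet.

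**Figure D2:**
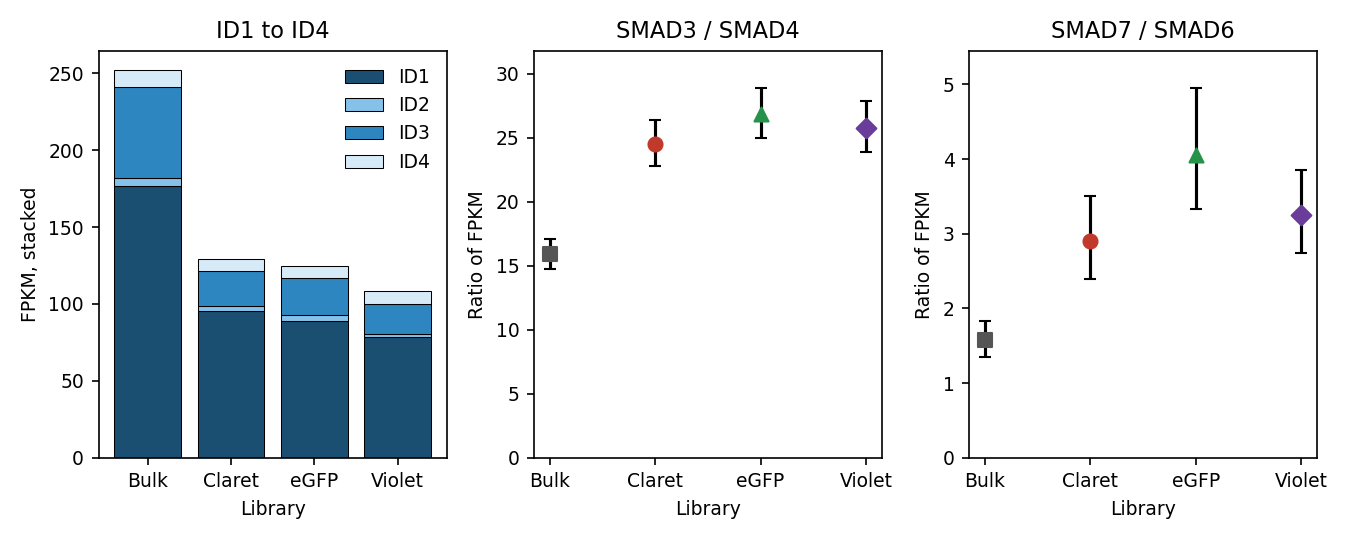
Left, summed FPKM of the 4 ID genes in each library, stacked by gene; middle and right, FPKM ratios of SMAD3 to SMAD4 and SMAD7 to SMAD6 with 95% counting intervals. The summed ID level is 252 in Bulk and between 108 and 129.5 in the label-retaining libraries, while both SMAD ratios are lowest in Bulk.

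SMAD3 was the one gene of the 10 whose ratio lay above 0 in every label-retaining library. This receptor-regulated SMAD carries TGF-β and activin signals, and its gene spans 131433 bases of chromosome 15 (67063763 to 67195195). It had 8588 reads in Bulk against 13042 for Claret, 14258 for eGFP and 12394 for Violet, with the Bulk count below all others. The log2 ratio to Bulk was 0.49 [0.46, 0.53] for Claret, 0.72 [0.68, 0.76] for eGFP and 0.53 [0.49, 0.57] for Violet. These are under 2-fold, and between 75.8% and 81.8% of the genes kept had a lower ratio. In FPKM, SMAD3 was at 60.6 in Bulk and 84.3, 97.9 and 84.7 in the others.

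SMAD4, the common partner, on chromosome 18 (51028394 to 51085045), had 778 reads in Bulk against 767 for Claret, 765 for eGFP and 692 for Violet. These counts lay close together, and the ratios to Bulk were -0.13 [-0.27, 0.02], -0.04 [-0.18, 0.11] and -0.17 [-0.32, -0.02]. The FPKM ratio of SMAD3 to SMAD4 was 15.9 in Bulk (interval 14.8 to 17.1) and 24.5 in Claret (22.8 to 26.4), 26.8 in eGFP (25.0 to 28.9) and 25.8 in Violet (23.9 to 27.9). The intervals of the 3 label-retaining libraries overlap each other and not that of Bulk. Of the 31-base stretches of SMAD4 transcripts, 7.33% also occur in another gene, so a small part of its reads may be shared.

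The inhibitory SMADs had unlike ratios. SMAD6, which acts mainly on BMP signals and lies on chromosome 15 (66702228 to 66782848), had 367 reads in Bulk against 178 for Claret, 146 for eGFP and 208 for Violet. Bulk was again well above the rest. The ratio to Bulk was -1.14 [-1.42, -0.89] for Claret, -1.33 [-1.63, -1.06] for eGFP and -0.81 [-1.07, -0.57] for Violet, so 2 of the 3 passed 2-fold. SMAD7, which inhibits both branches and lies on chromosome 18 (48919853 to 48952052, minus strand), had 340 reads in Bulk against 303 for Claret, 348 for eGFP and 397 for Violet. Bulk lay within the range of the other 3, and the ratios were -0.27 [-0.50, -0.05], 0.02 [-0.20, 0.24] and 0.22 [0.01, 0.44]. The FPKM ratio of SMAD7 to SMAD6 was 1.58 in Bulk (interval 1.36 to 1.83), 2.90 in Claret (2.40 to 3.50), 4.06 in eGFP (3.33 to 4.95) and 3.25 in Violet (2.74 to 3.86).

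SKIL and BAMBI were low and close to Bulk. SKIL, on chromosome 3 (170357678 to 170396835), had 297 reads in Bulk against 281 for Claret, 316 for eGFP and 294 for Violet, with ratios of -0.19 [-0.43, 0.05], 0.08 [-0.16, 0.31] and -0.01 [-0.25, 0.22]. BAMBI, on chromosome 10 (28677342 to 28682939), had 152 reads in Bulk against 148 for Claret, 123 for eGFP and 138 for Violet, with ratios of -0.14 [-0.48, 0.19], -0.31 [-0.67, 0.03] and -0.14 [-0.48, 0.20]. All 6 intervals include 0, so a difference from Bulk was not detectable for either gene at this depth.

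**Figure D3:**
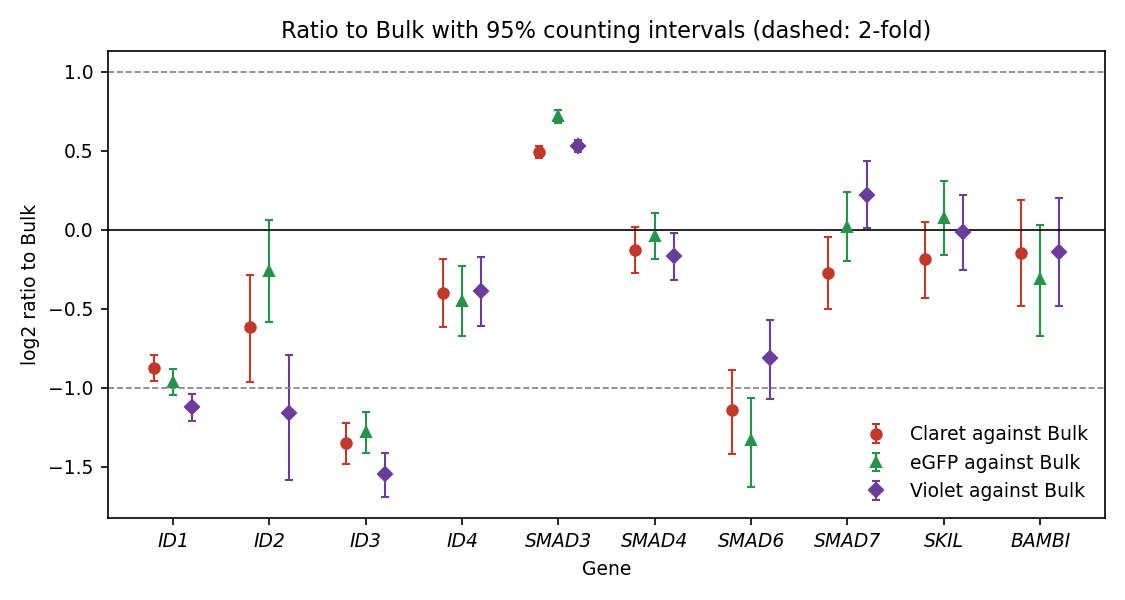
Log2 ratio of each label-retaining library to Bulk for the 10 genes, with 95% counting intervals; the dashed lines mark 2-fold. ID3 lies past the lower line in all 3 libraries, from -1.28 to -1.54, and SMAD3 lies above 0 in all 3, from 0.49 to 0.72.

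In all, 2 of the 10 genes were at least 2-fold lower in Claret (ID3 and SMAD6), where 6.72% of all genes kept were. In eGFP the count was 2 (ID3 and SMAD6) against 7.64% of all genes, and in Violet it was 3 (ID1, ID2 and ID3) against 6.92%. None was at least 2-fold higher, where the share of all genes was 11.3% for Claret, 12% for eGFP and 11.7% for Violet. The median ratio of the 10 genes was -0.34 for Claret, -0.29 for eGFP and -0.28 for Violet, beside -0.01, -0.01 and 0.01 for all genes kept. Bulk lay outside the range of the other 3 libraries for 8 of the 10, all but SMAD7 and SKIL, a share close to the 85.4% of all genes kept for which it did.

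Proliferation genes, MKI67 among them, also differed between Bulk and the label-retaining libraries. All 6 listed proliferation genes (MKI67, TOP2A, CCNB1, CDK1, MCM2 and PCNA) were at least 2-fold lower in each label-retaining library, with a median ratio of -2.12 for Claret, -2.49 for eGFP and -2.15 for Violet. Over all genes kept, 4.93% were at least 2-fold lower in all 3. The part of cell cycle state in the ID and SMAD6 values was not tested.

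The order of the 10 genes by FPKM also differed. In Bulk, ID1 led, 2.80 to 3.03 times above SMAD3 by the interval, and SMAD3 and ID3 could not be told apart (0.97 to 1.08). In Claret ID1 was still above SMAD3, by 1.08 to 1.18 times, and ID3 followed SMAD3. In eGFP and Violet SMAD3 was above ID1, by 1.05 to 1.16 and 1.02 to 1.14 times. These intervals cover counting error only. An order of genes by FPKM also rests on the length deposited for each gene. That length was 1233 bases for ID1, its whole span, 1797 for ID3 and 9113 for SMAD3. Other lengths were not tried, so close places such as those of SMAD3, ID1 and ID3 are not settled. ID4 came next after these 3 genes in every library. Further down, ID2, SMAD7, BAMBI and SMAD4 formed a run in Bulk, from 5.16 to 3.81 FPKM, in which neighbours did not differ beyond counting error. The lowest was SKIL in Bulk, at 2.46 FPKM and not separable from SMAD6 at 2.76, and SMAD6 elsewhere, at 1.22 for Claret, 1.07 for eGFP and 1.51 for Violet.

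The label-retaining libraries were then compared with each other, which asks whether cells that retained one label differ from those that retained another. No member reached 2-fold in any of the 3 pairs, where 1.15% of all genes did between Claret and eGFP, 1.06% between Claret and Violet and 1.29% between eGFP and Violet. By counting error alone, the interval left out 0 for 4 of the 10 between Claret and eGFP (24.4% of all genes), 5 between Claret and Violet (28% of all genes) and 5 between eGFP and Violet (28.3% of all genes).

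The largest of these 30 ratios was that of ID2, which was higher in eGFP than in Violet by 0.90 [0.52, 1.33], a ratio above that of 99.4% of the genes kept. It was also higher in Claret than in Violet, by 0.55 [0.14, 0.99], and its ratio of Claret to eGFP was -0.35 [-0.72, -0.01]. The antisense gene ID2-AS1, which overlaps ID2 on the other strand, had 2 reads in Bulk against 5 for Claret, 19 for eGFP and 9 for Violet. Whether the counting used strand is not given in the sources used here. The part of the antisense reads in the ID2 value was not tested.

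ID1 and ID3 were also lowest in Violet. ID1 was higher than in Violet by 0.25 [0.15, 0.35] in Claret and 0.16 [0.06, 0.26] in eGFP, and ID3 by 0.20 [0.03, 0.36] and 0.26 [0.10, 0.43]. SMAD6 had the opposite order. Its ratio to Violet was -0.33 [-0.63, -0.04] in Claret and -0.52 [-0.84, -0.21] in eGFP. SMAD7 was lowest in Claret, with a ratio of -0.50 [-0.72, -0.28] to Violet and -0.29 [-0.52, -0.07] to eGFP. SMAD3 was highest in eGFP, with a ratio of -0.22 [-0.26, -0.19] of Claret to eGFP and 0.19 [0.15, 0.22] of eGFP to Violet, and the remaining ratio of this group was SKIL, at -0.26 [-0.50, -0.03] for Claret to eGFP. With 1 library a group, differences of this size between sorts and between single libraries cannot be told apart.

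**Figure D4:**
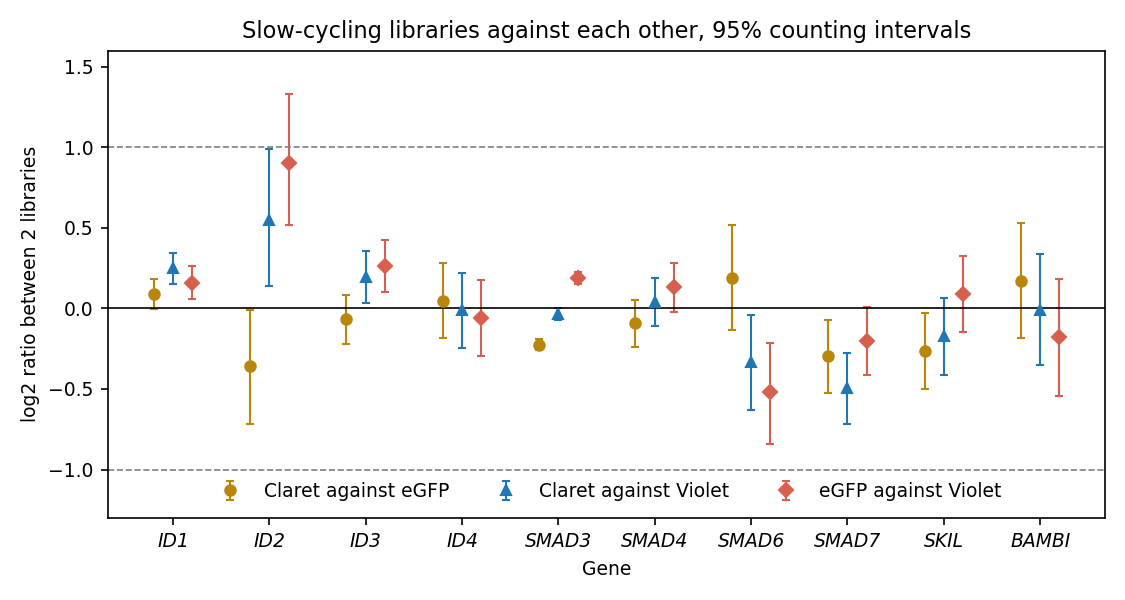
Log2 ratios between the label-retaining libraries for the 10 genes, with 95% counting intervals; dashed lines mark 2-fold. The ID2 value of eGFP against Violet, 0.90, is the one nearest to a line, and no point passes one.

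The rest of the pathway was described from lists by role, as counts and medians. In all genes kept, the medians were -0.01 for Claret, -0.01 for eGFP and 0.01 for Violet, and 8.67% were at least 2-fold higher in all 3. By library, 11.3%, 12% and 11.7% were at least 2-fold higher, and 6.72%, 7.64% and 6.92% lower, in that order. The other SMADs (SMAD1, SMAD2, SMAD5 and SMAD9) were all kept and none reached 2-fold, with medians of -0.13 for Claret, -0.23 for eGFP and -0.10 for Violet. SMAD2, which shares the TGF-β branch with SMAD3, had 866 reads in Bulk, beside 961 for Claret, 909 for eGFP and 846 for Violet, with ratios of 0.04, 0.06 and -0.03. SMAD5, of the BMP branch, was at -0.29, -0.20 and -0.26.

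Among the 8 TGF-β and activin receptors, all kept, none reached 2-fold, and the medians were 0.01, 0.04 and 0.03. The type II receptor TGFBR2 had 3467 reads in Bulk against 5933 for Claret, 5186 for eGFP and 5611 for Violet, with ratios of 0.67, 0.57 and 0.70. Its type I partner TGFBR1 was at -0.36, -0.47 and -0.30. The co-receptors TGFBR3 and ENG were near Bulk, at -0.11, -0.10 and -0.06 and at -0.10, -0.05 and -0.12. Of the activin receptors, ACVR1B was at -0.09, 0.03 and -0.02 and ACVR2B at 0.35, 0.48 and 0.45. Of 8 BMP receptor genes 6 were kept, with medians of 0.29, 0.25 and 0.32. One of them, ACVRL1 (ALK1, best known from endothelium), was at least 2-fold higher in all 3, from 11 reads in Bulk to 76 for Claret, 78 for eGFP and 82 for Violet. In Bulk it was under 1 CPM, so it passed the filter only through the label-retaining libraries, and its direction was largely set by the filter. The share at least 2-fold higher in all 3 was 8.67% over all genes kept. BMPR1A, a type I receptor for BMPs, was at -0.26, -0.22 and -0.27, and ACVR1, another, at 0.53, 0.47 and 0.39. The type II receptor BMPR2 was at 0.06, 0.03 and 0.25, and the co-receptor RGMB at 0.57, 0.50 and 0.56.

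The ligands had higher medians, at 0.66 for Claret, 0.61 for eGFP and 0.81 for Violet, over the 13 of 20 that were kept. At least 2-fold higher were 6 for Claret, 4 for eGFP and 5 for Violet, where 11.3%, 12% and 11.7% of all genes were, and none was 2-fold lower, where 6.72%, 7.64% and 6.92% were. Of those higher in at least 1 library, INHBE, BMP2 and INHA had 1, 7 and 11 reads in Bulk, under 1 CPM. They passed the filter only through the label-retaining libraries, so their direction was largely set by the filter. With log2(FPKM + 1), 2 ligands passed 2-fold in each library and the medians were 0.39, 0.14 and 0.53. INHBE, GDF15 and BMP8B were at least 2-fold higher in all 3, as were 8.67% of all genes kept. GDF15, a stress-induced family member, had 227 reads in Bulk against 3672 for Claret, 2890 for eGFP and 3383 for Violet. INHBE, an inhibin subunit, had 1 read in Bulk and 620, 615 and 431 in the others, and with 1 read the lower interval bounds were 6.68, 6.77 and 6.27 on the log2 scale. TGFB1 was at 0.66, 0.95 and 0.81, from 2135 reads in Bulk to 3638, 4177 and 3736, and BMP4, a classic inducer of ID genes, was at -0.22, -0.49 and -0.13. TGFB2 was at 0.02, 0.03 and 0.35, and the activin subunit gene INHBB at 0.45, -0.02 and 0.77. GDF11, an activin-like ligand, had the lowest ratios of the ligands kept, at -0.92, -0.91 and -0.66.

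The extracellular regulators (7 of 15 kept) are mostly antagonists, but the list also holds the latent TGF-β binding protein LTBP1. Their medians were -0.05, 0.03 and 0.08, with none 2-fold lower and 1 higher, FSTL3 in eGFP, a gene named after its value was seen. Of all genes kept, 11.3% were at least 2-fold higher for Claret, 12% for eGFP and 11.7% for Violet, and 6.72%, 7.64% and 6.92% were lower. The intracellular regulators (15 of 16 kept), which are repressors, ligases, phosphatases and deubiquitinases, had none past 2-fold and medians of -0.19, -0.14 and -0.14. The bHLH partners of ID proteins (8 of 14 kept) had medians of -0.09, 0.07 and 0.09 with 1 higher gene, BHLHE40 in eGFP, likewise named after its value was seen. The 6 genes of other inputs known to raise ID genes had medians of 0.55, 0.54 and 0.51. The immediate-early factor EGR1 and KLF4 were at least 2-fold higher in all 3, as were 8.67% of all genes kept. EGR1 was higher by 3.38, 3.59 and 2.98. The part of these inputs in the ID values was not tested.

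Target genes were listed by branch. Of the TGF-β targets, 15 of 18 were kept, with medians of 0.61 for Claret, 0.76 for eGFP and 0.55 for Violet. At least 2-fold higher were 5, 6 and 3, beside 11.3%, 12% and 11.7% of all genes, and at least 2-fold lower were 1, 2 and 0, beside 6.72%, 7.64% and 6.92%. PTHLH, among those higher in Claret and eGFP, had 7 reads in Bulk, under 1 CPM, and passed the filter only through those libraries. The medians were smaller with no filter, at 0.28, 0.42 and 0.41, and with log2(FPKM + 1), at 0.29, 0.49 and 0.46. Those at least 2-fold higher in all 3, as were 8.67% of all genes kept, included JUNB and SNAI1 (an EMT transcription factor). JUNB had 831 reads in Bulk against 3442 for Claret, 3740 for eGFP and 2713 for Violet, with ratios of 1.94, 2.15 and 1.71, and SNAI1 was at 1.03, 1.5 and 1.18. SNAI2, another EMT transcription factor on the list, went the other way, at -1.12, -1.43 and -0.52. THBS1 was also lower, at -0.99, -1.06 and -0.86. Both were named after their values were seen. JUNB codes for a subunit of AP-1, which also acts downstream of other signals.

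The list of BMP targets held 19 genes, of which 7 are among the 10 members, and 13 were kept. Their medians were -0.42, -0.36 and -0.39, with 3, 3 and 4 genes at least 2-fold lower (6.72%, 7.64% and 6.92% of all genes) and 2 at least 2-fold higher in each (11.3%, 12% and 11.7%). All but 1 of those lower in each library are members counted above. Outside the members, 6 of 12 were kept, and of these ATOH8 was at least 2-fold lower in all 3 and HEY1 and RUNX2 at least 2-fold higher in all 3. Over all genes kept, 4.93% were at least 2-fold lower in all 3 and 8.67% at least 2-fold higher. ATOH8, a bHLH factor, had 114 reads in Bulk against 34 for Claret, 49 for eGFP and 31 for Violet. RUNX2, a bone and breast cancer factor, was at 1.28, 1.42 and 1.22, and HEY1, also a target of Notch, at 2.03, 2.05 and 1.96. The BMP targets outside the members thus went both ways. No test of the difference between the branches was run.

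**Figure D5:**
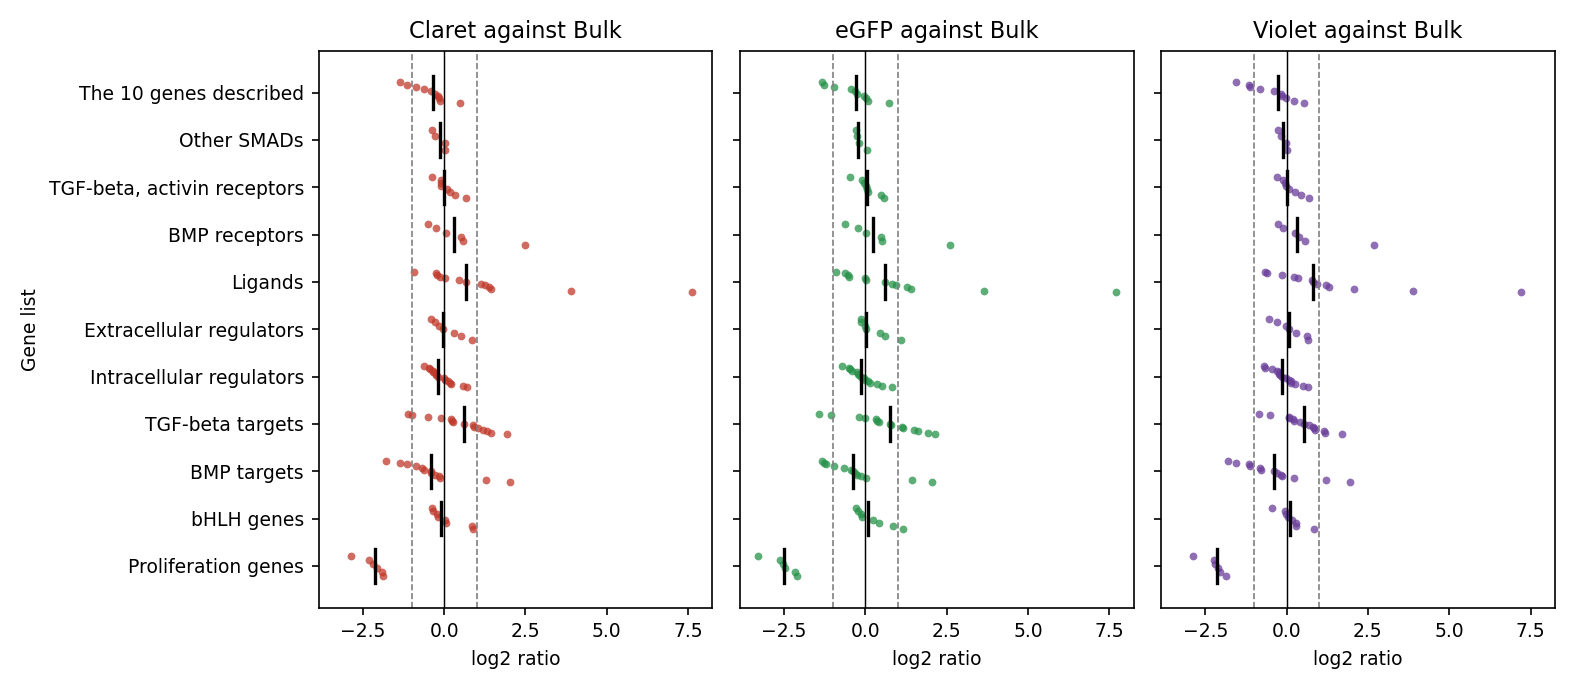
Log2 ratio to Bulk of every kept gene in the 10 members, the proliferation genes and the pathway lists other than the inputs known to raise ID genes, 1 panel per library and 1 point per gene; black bars are medians and dashed lines mark 2-fold. The median of the TGF-β targets lies between 0.55 and 0.76 and that of the BMP targets between -0.42 and -0.36. Of the BMP targets, 7 are themselves among the 10 members.

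The genes nearest to ID3 in their 3 ratios to Bulk, among 9755 protein-coding genes with a mean of at least 10 CPM, were CCDC86, CEP78 and TCOF1. Likeness was the largest absolute difference over the 3 ratios, and it was 0.09 for CCDC86, 0.10 for CEP78 and 0.10 for TCOF1. CCDC86 was at -1.43, -1.34 and -1.51. The measure was taken over 3 ratios that share the Bulk library.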

How the data were processed

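RNA from 4 sorted libraries of MDA-MB-231 cells, 1 per group, was sequenced. Per the submitters' processing notes, HISAT2 2.0.5 and featureCounts 1.5.0-p3 were used. Genome build, strand setting and treatment of multi-mapping reads are not given in the sources used here. Gene coordinates of all 58735 genes equal those of GENCODE 29 (GRCh38). The authors deposited raw counts per gene and FPKM values; the deposited FPKM values were used for levels and for ratios between genes, set side by side across libraries, and for one alternative.

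Counts were scaled with TMM (edgeR 4.0.16) over 14585 genes with a mean of at least 1 CPM, and log2 ratios took a prior count of 2. Intervals are exact (Clopper-Pearson, 95%) on the reads of 2 libraries. A quasi-likelihood fit in edgeR cannot estimate a spread from 1 library per group, so no p-value is given. Between 15508179 and 16976909 reads were counted per library. Alternatives were no scaling, DESeq2 1.42.0 size factors, no filter, a filter of 10 CPM, a prior count of 0.5, log2(FPKM + 1), a correction for GC content, and groups from the treatment field.

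The 10 genes and the pathway lists were chosen with earlier results of these data known. Named in the text are all 10 genes, from each list up to 4 genes at least 2-fold changed one way in all 3 label-retaining libraries, ligands, receptors and SMADs with a mean of at least 10 CPM, and the 3 protein-coding genes nearest to ID3. E proteins were named as partners of ID proteins, and a few further genes of the lists after their values were seen. All 145 listed symbols were found, 1 of them (CCN2) under its older name CTGF. One gene of the TGF-β target list is not reported here by name.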

Additional observations from a re-analysis of the deposited data

Results flagged for a closer look

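SMAD7 moved in opposite directions in 2 of the label-retaining libraries. Against Bulk its log2 ratio was -0.27 in Claret, with an interval of -0.50 to -0.05, and 0.22 in Violet, with an interval of 0.01 to 0.44. Each interval leaves out 0 by counting error, that of Violet narrowly, and the ratio of Claret to Violet was -0.50 with an interval of -0.72 to -0.28. An interval that leaves out 0 was common between Claret and Violet, at 28% of all genes kept. Over the alternatives that keep the titles, the ratio to Bulk ran from -0.36 to -0.21 in Claret and from 0.13 to 0.30 in Violet. The difference between the groups was not tested, since each is 1 library.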

How the results depend on the processing

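Over the 7 alternatives that keep the titles, 197 of 204 ratios of the 10 genes to Bulk kept their direction. The 7 that did not came from 3 ratios with intervals that include 0, SKIL in Violet and SMAD4 and SMAD7 in eGFP. The side of 2-fold was kept by 200 of 204. On the log2(FPKM + 1) scale, which understates the change of low genes, 1 of the 10 genes was past 2-fold in Claret and 1 in eGFP, since SMAD6 came to -0.76 and -0.86, and ID2 in Violet came to -0.94. With the GC correction ID1 in eGFP came to -1.07, which raised the count there to 3. A filter of 10 CPM removed ID2 and BAMBI. The pathway lists depend more on the filter, since it sets which genes are in them. Ligands past 2-fold in Claret went from 6 to 3 at 10 CPM, and those in eGFP from 4 to 7 with no filter. The median of the extracellular regulators in Claret went from -0.05 to 0.30 with no filter. That of the bHLH partners in eGFP went from 0.07 to -0.11. All 14 ratios between label-retaining libraries whose intervals leave out 0 kept their direction wherever the gene was kept.

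With groups taken from the treatment field, by which the column headed Bulk is called Claret, 8 of 30 ratios kept their direction. Of the libraries so named, the genes past 2-fold numbered 0 in eGFP and 0 in Violet. In Claret ID3 came to 1.54, SMAD6 to 0.81 and the median of the proliferation genes to 2.15. ID3 came to 0.20 in eGFP and 0.26 in Violet, where ID1 came to 0.16 and ID2 to 0.90. Since each group is 1 library, no library could be left out and no paired analysis was possible. Depth limits ID2 and BAMBI most, which had the widest intervals.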
